A study of Homo sapiens with 6 samples.

Results

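Genes of the unfolded protein response and of the amino acid response were followed after a short exposure to cisplatin, a DNA-crosslinking platinum compound, in the established human lung adenocarcinoma line A549. The set was named by symbol: DDIT3, ATF4, TRIB3, ASNS, PSAT1, PHGDH, HSPA5, HERPUD1, XBP1 and DNAJB9. Of these 10 genes, 7 had a probe set whose single gene symbol in the platform's probe table was that name, 1 probe set each, out of 8746 probe sets besides the array's controls. DDIT3, HSPA5 and HERPUD1 had no such probe set and were not analysed here. All 7 measured probe sets were bright enough to be among the 6559 that were tested. In 1 group the cells spent 1 hour in medium with 50 µM cisplatin, in the other the same time in regular growth medium. Both were washed and kept for 10 hours in drug-free medium before total RNA was taken. Each group had 3 arrays, and the series description speaks of 3 independent experiments.

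Misfolded proteins in the endoplasmic reticulum activate sensors in its membrane: PERK, which slows translation by phosphorylating eIF2, IRE1, which splices the XBP1 messenger, and ATF6, which is cut to release a transcription factor. Lack of amino acids reaches eIF2 through another kinase, GCN2. Phosphorylated eIF2 favours translation of ATF4, which then induces genes of amino acid synthesis and transport and its own feedback inhibitor TRIB3, while ATF6 and spliced XBP1 induce chaperones and degradation factors of the reticulum. Much of this control acts on translation, splicing and protein cleavage. Probe set intensities report messenger abundance and cannot show those steps, and in bulk RNA a change in cell number cannot be told apart from a change in RNA per cell.

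The promoters of some of these genes carry the sequence elements through which the response is known to act. Windows of 250 bases before and 50 bases from each RefSeq transcription start (GRCh38.p14) were searched on both strands for 4 motifs. These were the C/EBP-ATF response element, CARE (TGATGNAA), the ER stress element, ERSE (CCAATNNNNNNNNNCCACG), its shorter form ERSE-II (ATTGGNCCACG) and the unfolded protein response element, UPRE (TGACGTGG). Both ERSE forms share the letters CCACG, and no matches of different motifs overlapped in the stretches shown here. All 10 genes had a window, 4 of them held a motif and 6 held none. The stretches with a match are shown for the measured genes ASNS and XBP1 and for the unmeasured HSPA5 and HERPUD1. Each is written on the strand of its gene, with the motif in capitals.

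ASNS, CARE: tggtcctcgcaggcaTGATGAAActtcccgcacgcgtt
XBP1, ERSE: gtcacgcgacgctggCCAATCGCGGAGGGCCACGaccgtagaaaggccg
HSPA5, ERSE: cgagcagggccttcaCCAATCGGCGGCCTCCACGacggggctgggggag
HERPUD1, ERSE-II: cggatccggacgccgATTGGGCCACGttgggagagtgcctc
HERPUD1, CARE on the opposite strand: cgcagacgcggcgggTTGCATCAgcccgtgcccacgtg

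The ASNS stretch lies at chr7:97872454-97872491 on the minus strand, with the motif ending 60 bases before the start. The XBP1 stretch lies at chr22:28800588-28800636 on the minus strand, and 33 bases separate its motif from the start. Both ASNS and XBP1 also had a window at another start, which held none of the 4 motifs. The HSPA5 stretch lies at chr9:125241376-125241424 on the minus strand, with 47 bases between motif and start. Those of HERPUD1 lie at chr16:56932010-56932050 and chr16:56931951-56931988 on the plus strand. A CARE match was found in 3.62% of the 35116 promoter windows in the table, an ERSE match in 0.0769%, an ERSE-II match in 0.0541% and a UPRE match in 0.729%. Counted by gene, over 27305 genes, these shares were 4.46%, 0.0916%, 0.0696% and 0.927%. A match describes letters in these windows and was not tied to binding, and ATF4, DDIT3, TRIB3, PSAT1, PHGDH and DNAJB9 held none of the 4 in theirs.

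The comparison of cisplatin with control asked whether these messengers differ 10 hours after the exposure. None of the 7 measured genes passed the threshold, an adjusted p under 0.05 in limma over all tested probe sets. In the same fit 19 of 6559 probe sets, or 0.29%, passed, so that 0 of 7 is close to what that share gives. Of the 7 genes, 1 had an unadjusted limma p under 0.05 against 5.03% of all tested probe sets. Their log2 folds (cisplatin minus control) ran from -0.28 for TRIB3 to 0.02 for PHGDH, with 4 above 0 and 3 below. The order around 0 depends on the scaling. With arrays centred on the median or quantile normalized all 7 were below 0 (medians of -0.057 and -0.052 on the log2 scale). The medians of all tested probe sets were then -0.019 and -0.00079. Centring lowers every log2 fold by the same amount, here by more than the largest of the 7. Counts of higher and lower genes after centring, here and below, are therefore no separate result. As deposited, the median of the 7 was 0.00, beside 0.04 over all tested probe sets. The widest bounds of their 95% intervals were 0.693-fold, for TRIB3, and 1.29-fold, for DNAJB9. All 7 intervals lay inside a change of 1.5-fold either way, as did 66.5% of those of all tested probe sets. On the same arrays CDKN1A, an inhibitor of cyclin-dependent kinases, went from 257 ± 21.4 to 1422 ± 48.5 (mean ± SD, n = 3 each). Its fold as fitted in limma was 5.35 (log2 2.42, adjusted p = 4.74e-06), the highest of all tested probe sets, so it is not a typical responder.

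**Figure D1:**
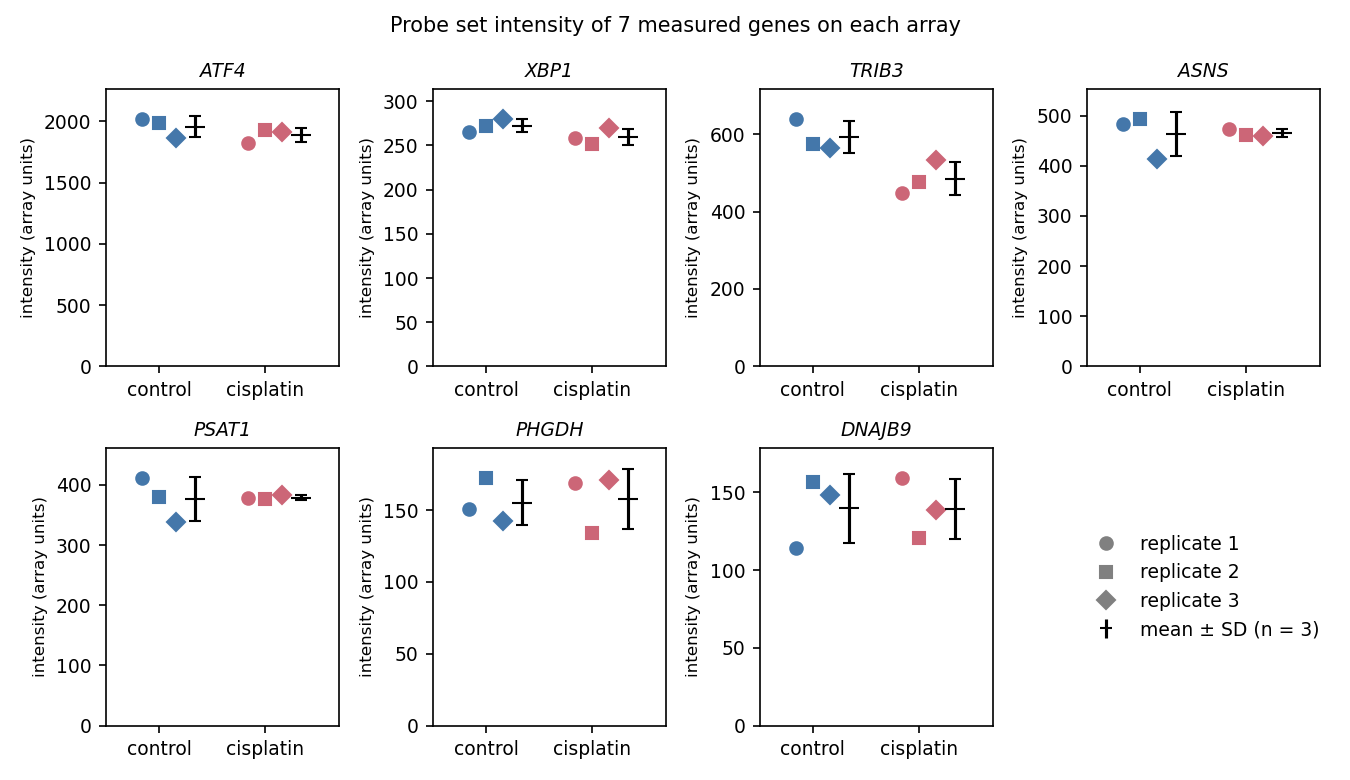
Deposited probe set intensity (y axis, array units, from 0) of each of the 7 measured genes on the 3 control and 3 cisplatin arrays; symbols mark the replicate number and black bars the mean ± SD. The groups overlap in every panel but that of TRIB3, whose 3 cisplatin values, 447 to 532, all lie below its 3 control values, 563 to 639.8.

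The ATF4 messenger, which encodes the central transcription factor of the amino acid response, had intensities of 2022, 1988 and 1863 on control 1 to 3 and of 1823, 1932 and 1917 on cisplatin 1 to 3. The cisplatin values span the lowest control, and the groups overlap. The means were 1958 ± 84.0 and 1891 ± 59.0 (SD, n = 3 each), and the log2 fold was -0.05 (SE 0.07, 95% interval -0.21 to 0.11, adjusted p = 0.999 in limma). Its interval was the narrowest of the 7 and corresponds to 0.868-fold to 1.08-fold. Since ATF4 is mainly controlled at translation, this value describes its messenger alone.

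XBP1 encodes the transcription factor that IRE1 switches on by splicing. Its intensities were 265, 272 and 280.3 on the control arrays and 258, 252 and 269.9 on the cisplatin arrays. Only cisplatin 3 lay within the control range, the other 2 being slightly below it. The log2 fold was -0.07 (SE 0.11, 95% interval -0.31 to 0.18, adjusted p = 0.999 in limma). The probe table does not say whether this probe set separates the spliced from the unspliced messenger.

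TRIB3, a pseudokinase that ATF4 and DDIT3 induce and that restrains them and the kinase AKT, stood farthest from 0. TRIB3 had intensities of 639.8, 576 and 563 on control 1 to 3 and of 447, 476 and 532 on cisplatin 1 to 3. Every cisplatin value was below every control value, which was so for 3.57% of all tested probe sets, while 7.42% had the opposite order. The means were 593 ± 41.2 and 485 ± 43.3 (SD, n = 3 each), and the fold as fitted in limma was 0.821 (log2 -0.28, SE 0.11, 95% interval -0.53 to -0.04). The unadjusted limma p was 0.0275 and the adjusted p 0.826, so the difference did not pass. TRIB3 kept its sign under all 16 alternative ways of processing, with log2 folds of -0.35 to -0.22 and adjusted p of 0.395 to 1. The upper end of its interval was 0.973-fold as deposited. The unadjusted limma p ranged from 0.022 to 0.109 over the alternatives, and the interval reached 0 where it was above 0.05. That was so with the replicate block (0.0804), with the 3′/5′ signal ratio of the ACTB controls as a covariate (0.0502), without control 1 (0.076), without cisplatin 1 (0.109), without cisplatin 2 (0.056), and with control 1 and cisplatin 2 both left out (0.0919).

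The 3 amino acid synthesis genes had log2 folds of 0.01 to 0.02 as deposited. ASNS, asparagine synthetase, had intensities of 483, 494 and 413 on the control arrays and of 474, 461 and 459 on the cisplatin arrays. All cisplatin values lay inside the control range. The log2 fold was 0.01 (SE 0.11, 95% interval -0.24 to 0.25, adjusted p = 0.999 in limma), which bounds the fold between 0.849 and 1.19.

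PSAT1, the transaminase of serine synthesis, had 412, 380.1 and 338 on the control arrays and 378, 376 and 383 on the cisplatin arrays. Here too the cisplatin values lay within the control range, and their SD was 3.90 against 36.7 in control. The log2 fold was 0.01 (95% interval -0.24 to 0.27). PHGDH, the dehydrogenase that opens serine synthesis, had 151, 172 and 142 on the control arrays and 169, 134 and 171 on the cisplatin arrays. Cisplatin 2 was the lowest of all 6 and the other 2 cisplatin values were among the highest. The log2 fold was 0.02 (95% interval -0.30 to 0.34, adjusted p = 0.999 for both genes in limma).

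DNAJB9, a J-domain co-chaperone of the reticulum and a target of spliced XBP1, had the largest spread within groups of the 7, with a residual SD of 0.20 on the log2 scale. The control arrays gave intensities of 114, 156 and 148, the cisplatin arrays 159, 121 and 139. Control 1 and cisplatin 2 were the lowest of their groups, and the groups overlap fully. The means were 139.7 ± 22.3 and 139.6 ± 19.4 (SD, n = 3 each). The fitted log2 fold was 0.00 with the widest interval of the 7, -0.36 to 0.36 (adjusted p = 0.999 in limma). With control 1 and cisplatin 2 left out together, the log2 fold was -0.03. The 3′ over 5′ signal ratio of ACTB controls, where a higher value stands for poorer RNA integrity, was 2.20 to 2.98 on control and 2.67 to 3.67 on cisplatin arrays. Control 1 had the lowest ratio and cisplatin 1 the highest. With this ratio as a covariate the log2 fold of DNAJB9 was -0.16 (adjusted p = 0.612 in limma).

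**Figure D2:**
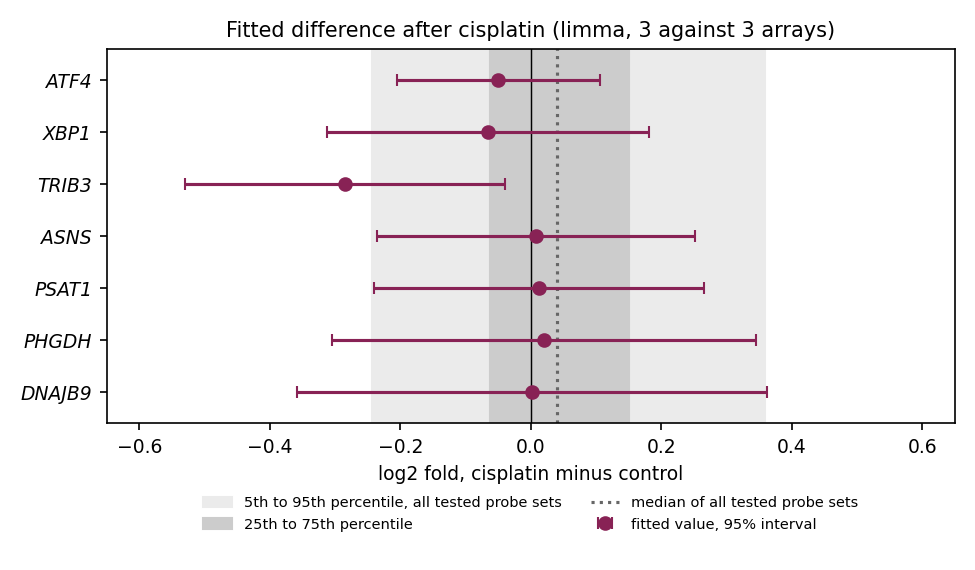
Fitted log2 fold (x axis, cisplatin minus control) of the 7 measured genes with 95% intervals from limma, over grey bands for the 5th to 95th and the 25th to 75th percentile of all tested probe sets and a dotted line at their median of 0.04. The interval of TRIB3, -0.53 to -0.04, is the one that does not reach 0 in this fit, and its value is the one outside the wider band, which starts at -0.24.

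Relative to each gene's mean over the 6 arrays, all 7 were above it on control 2 and 1 of 7 on cisplatin 2, while on the other 4 arrays 3 or 4 of 7 were. The median deviation of the members was 0.09 on control 2 and -0.08 on cisplatin 2 on the log2 scale, where the median over all tested probe sets was 0.03 on both. The highest value of a gene was on a control array for 6 of the 7, 3 of them on control 1. The lowest values were on both groups: 1 on control 1, 2 on control 3, 2 on cisplatin 1 and 2 on cisplatin 2. Such counts were not made over all tested probe sets. The median residual SD within groups was 0.10 on the log2 scale for the members and 0.19 for all tested probe sets, with no matching on brightness. These are values of single arrays and of genes that share them, given as a description.

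**Figure D3:**
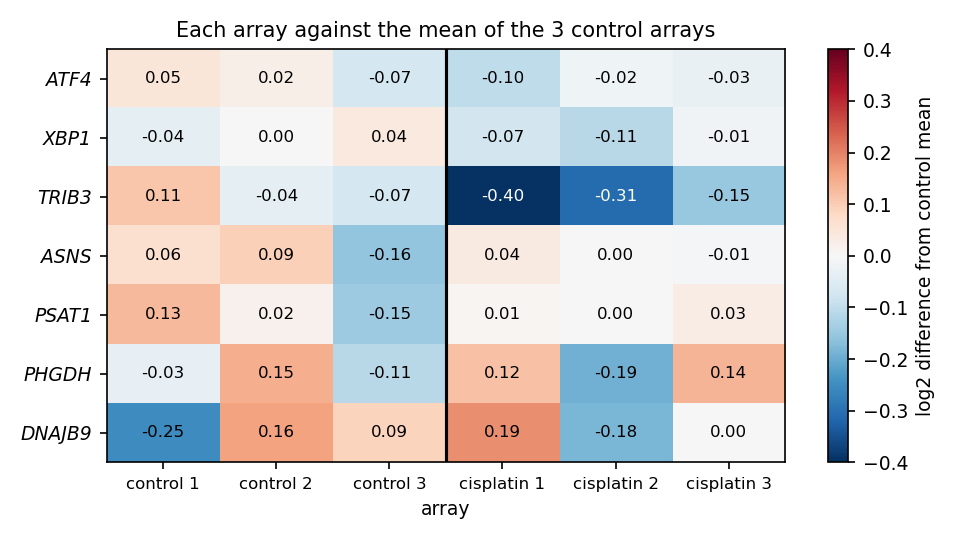
Log2 difference of each array (columns) from the mean of the 3 control arrays for each measured gene (rows), with the value written in each cell and the vertical line between control and cisplatin arrays. TRIB3 is at -0.40, -0.31 and -0.15 on the 3 cisplatin arrays, and DNAJB9 ranges from -0.25 on control 1 to 0.19 on cisplatin 1.

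Around the named genes, 138 other genes of the same pathways were listed in 8 groups by role, and 97 had a tested probe set with a single name. None of the 97 passed in limma (19 of all 6559 probe sets, 0.29%, did), 3 (3.09%) had an unadjusted p under 0.05, and 49 were higher and 48 lower. That split was 28 to 69 with arrays centred on the median and 35 to 62 after quantile normalization, against 2923 to 3636 and 3270 to 3289 for all tested probe sets (3968 to 2591 as deposited). The 3 genes with an unadjusted p under 0.05 were ATF3, BATF3 and MBTPS1. The median log2 fold of the 97 was 0.00, and 1 gene, ATF3, differed by more than 0.5 on the log2 scale. The 95% interval lay inside a 2-fold change either way for 95 of the 97 (97.9%), close to the 97.4% of all tested probe sets. It lay inside 1.5-fold for 79 (81.4%), against 66.5% of all tested probe sets. The groups were fully apart upwards for 6 of the 97 (ATF3, BATF3, SLC1A4, SARS1, MBTPS1 and WFS1) and downwards for 3 (EIF2AK1, SLC7A5 and ATF6), beside 7.42% and 3.57% of all tested probe sets.

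Upstream, of 10 tested genes for the eIF2 kinases, eIF2 itself, its exchange factor and its phosphatase, 5 were higher and 5 lower, with a median log2 fold of 0.00 (2 to 8 with arrays centred on the median, 3 to 7 after quantile normalization). The kinases among the 10 were EIF2AK1, EIF2AK2 and EIF2AK3, while the gene of GCN2 was not among them. EIF2AK3, which encodes PERK, had intensities of 15.4, 45.9 and 35.0 on control 1 to 3 and of 47.3, 37.8 and 46.6 on cisplatin 1 to 3. Its groups overlap, and the log2 fold of 0.41 had an interval of -0.19 to 1.00. It was 0.10 without control 1, the lowest array, and 0.64 without control 2 (unadjusted p = 0.0411, adjusted p = 0.999 in limma). EIF2AK1, the haem-regulated eIF2 kinase, had a log2 fold of -0.07 (interval -0.26 to 0.11). PPP1R15A, the phosphatase subunit that ATF4 signalling induces to end the response, had 0.06 (interval -0.32 to 0.44).

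The sensor group held 8 tested genes, 4 higher and 4 lower, with a median of -0.01 (3 to 5 under both other scalings). MBTPS1, the site-1 protease that cuts ATF6, went from 256.5 ± 21.9 in control to 313.5 ± 10.2 after cisplatin (SD, n = 3 each). Its groups did not overlap, but the log2 fold of 0.28 had an adjusted p of 0.908 in limma. ATF6 itself lay on the other side, at 103 ± 3.78 and 88.2 ± 7.34, also without overlap, at -0.20 on the log2 scale (adjusted p = 0.999 in limma). ERN1, which encodes IRE1, had a log2 fold of -0.08 (interval -0.64 to 0.48).

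Among 11 tested partners and stress targets of ATF4, 5 were higher and 6 lower, with a median of -0.03. ATF3, a stress-induced factor of the same family that many pathways besides ATF4 can switch on, had intensities of 25.2, 40.7 and 34.3 on control 1 to 3 and of 83.3, 63.4 and 103 on cisplatin 1 to 3. The groups were well apart, with a log2 fold of 1.06 (SE 0.20, interval 0.61 to 1.52), and the adjusted p in limma was 0.0976. Over the 15 alternatives that tested the gene it was 0.0374 to 0.504. It was under 0.05 in 1 of them, with control 1 and cisplatin 2 left out together, which leaves fewer arrays in each group. BATF3, a related leucine zipper factor, had a log2 fold of 0.48 (adjusted p = 0.66 in limma). The lowest log2 fold of the 11 was -0.235, for ATF5. The established targets NUPR1, STC2 and VLDLR had log2 folds of 0.27, -0.21 and 0.09, and CEBPB, a dimer partner of ATF4, had -0.03. None of these passed.

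The effector groups of the amino acid response gave like values. Of 12 tested synthesis enzymes 6 were higher and 6 lower (median log2 fold 0.02), with CTH, which makes cysteine, at 0.36 and the mitochondrial folate enzyme MTHFD2 at 0.14. PSPH, which completes serine synthesis after PHGDH and PSAT1, had 0.16, and SHMT2, which turns serine into glycine, had -0.12. Of 9 amino acid transporters 4 were higher and 5 lower (median -0.08), and 3 to 6 under both other scalings. The lowest of the 9 was SLC3A2, at a log2 fold of -0.24 (interval -0.73 to 0.26). SLC7A5, the large neutral amino acid transporter, went from 2483 ± 176 to 2233 ± 56.7 (SD, n = 3 each; log2 -0.15, adjusted p = 0.982 in limma), and SLC1A4, a neutral amino acid transporter, had 0.33 (0.18 without control 3). The cystine transporter SLC7A11 ranged from 747 to 1628 among the control arrays alone, and its interval of -0.72 to 0.50 is correspondingly wide. Of 14 tRNA synthetase genes 7 were higher and 7 lower (median 0.00), with SARS1 at 0.19 and AARS1 at -0.14. That split was 3 to 11 with arrays centred on the median and 6 to 8 after quantile normalization.

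In the effector groups of the reticulum, 16 tested chaperones and foldases had 6 genes higher and 10 lower, with a median log2 fold of -0.03 and a range of -0.20 to 0.05. Centring the arrays on the median lowers every log2 fold by the same amount, and 0 of the 16 were then higher. After quantile normalization 3 were. Among the 16, SIL1, a nucleotide exchange factor for HSPA5, had -0.20, MANF, a secreted stress factor, -0.08, and the disulfide isomerase PDIA4 -0.09. The degradation and translocation group had 12 of 17 genes higher and 5 lower, with a median of 0.05, near the 0.04 of all tested probe sets, and 8 higher to 9 lower under both other scalings. WFS1, a membrane protein of the reticulum, had 0.23 there and VCP, the ATPase that extracts proteins for degradation, -0.16. SEL1L, the adaptor of the main degradation ligase, had -0.01 (interval -0.34 to 0.32). No gene of either group passed.

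**Figure D4:**
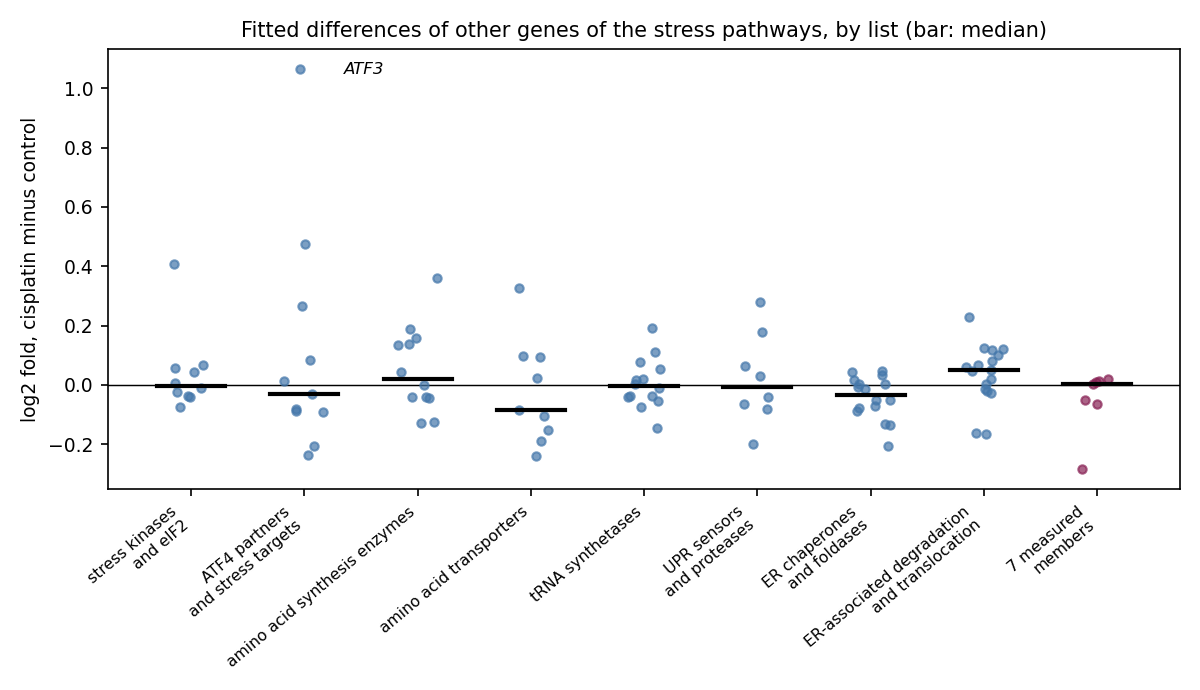
Fitted log2 fold (y axis, cisplatin minus control) of each tested gene of the 8 pathway lists and of the 7 measured members (x axis; points are genes, bars the median of each list). All list medians lie between -0.08 and 0.05, and ATF3, at 1.06, is the 1 point above 0.5.

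Markers of the cell line were checked on the same arrays. Of 6 epithelial markers fixed for A549, KRT8, KRT18 and KRT7 were bright (means of 1950 to 5810), KRT19 reached 131 in control, and EPCAM and CDH1 were dim at 33.3 and 37.3. The summed intensity of the 6 was 8871 to 11240 on control and 8513 to 11090 on cisplatin arrays. Of 8 measured markers of blood, endothelial and stromal cells, 5 were below the brightness filter, among them PTPRC and CDH5. The other 3, COL1A1, PECAM1 and CD14, were above it, with control means of 102, 61.2 and 46.9. Each of these was above the control means of EPCAM and CDH1. The sum of the 8 was 230.0 to 264.5 on control and 215 to 279.7 on cisplatin arrays. Median intensities per array ran from 57.2 to 67.2, and with 3 arrays a group the precision is limited by their number.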

How the data were processed

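The authors deposited linear probe set intensities with a lowest value of -512.3, so some subtraction came before deposit; which one is not given in the sources used here. Summarisation software and any scaling between arrays: not given in the sources used here. Values at or below 0 were set to 0, an offset of 11.8 (the 10th percentile of positive values) was added, and log2 was taken. Folds are on that scale, which makes those of dim probe sets smaller. The arrays were used as deposited, since their 75th percentiles spanned 0.15 on the log2 scale, under a limit of 0.3. After 47 control probe sets were left out, 6559 of 8746 probe sets were tested, namely all whose average log2 reached the 25th percentile. The probe table gave 1 gene symbol to 7840 of them, more than 1 to 388 and no symbol to 518, and 7838 were found in RefSeq (GRCh38.p14) by Entrez identifier, with 0 symbols changed.

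Groups were compared in limma 3.58.1 under R 4.3.3 (two-sided, moderated by eBayes along the intensity trend, 4 residual degrees of freedom) with Benjamini-Hochberg adjustment over all tested probe sets at 0.05. The steps were tested on simulated data. With 3 arrays a group the smallest exact p is 0.1, and no exact test was run. Means and SD refer to intensities as deposited. The members and the gene lists were chosen with earlier results of these data known. All members were named, and in each list the genes past the threshold or, where 0 passed, the 2 with the lowest unadjusted p, plus ATF3 and CDKN1A. PPP1R15A, ERN1, ATF5, NUPR1, STC2, VLDLR, CEBPB, PSPH, SHMT2, SLC3A2, SLC7A11, PDIA4 and SEL1L were added after their values were seen. A gene of a list was represented by its brightest tested probe set. Alternatives covered scaling, offset, filter, variance prior, replicate block, left-out arrays and the 3′/5′ covariate. Promoter sequences are RefSeq's, and the plots were made in Python 3.11.15 with matplotlib 3.10.9.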

Additional observations from a re-analysis of the deposited data

How the results depend on the processing

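None of the 7 measured genes passed in limma under any of 16 alternatives, which gave 112 values. ATF4, XBP1 and TRIB3 kept their sign in all of them, while the 4 genes near 0 changed sign in 19 values. With arrays centred on the median the log2 fold was -0.051 for ASNS, -0.057 for DNAJB9, -0.039 for PHGDH and -0.047 for PSAT1, and with quantile normalization it was -0.0046, -0.052, -0.029 and -0.014. These scalings moved the median of all tested probe sets from 0.040 to -0.019 and -0.00079. As deposited the log2 folds of these 4 genes were only 0.0022 to 0.020, so a shift of that size changes their sign. With control 1 and cisplatin 2 left out together DNAJB9 had -0.031, and with the 3′/5′ ratio as covariate DNAJB9 had -0.16 and PHGDH -0.044. Leaving out each array gave ranges of -0.070 to 0.056 for ASNS, -0.12 to 0.095 for DNAJB9, -0.038 to 0.13 for PHGDH and -0.060 to 0.077 for PSAT1. The count over all tested probe sets, 19, was 8 without the intensity trend, 47 with the 3′/5′ covariate and 6 to 18 without 1 array, the lowest of these without control 2 and without cisplatin 1; the cause was not tested. Of the other pathway genes, 0 passed, except 1 (ATF3) with control 1 and cisplatin 2 left out together.

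With the replicate number as a block (replicate block), 5 probe sets and 0 members passed. Arrays that carry the same number deviated from their groups with correlations of -0.56, -0.31 and -0.12. The numbers were not taken as pairs in the main fit, and the block uses up residual degrees of freedom. With so few arrays these correlations cannot show whether arrays of the same number came from the same experiment. Fitted values of dim genes such as ATF3 depend on the offset: its log2 fold was 0.67 with an offset of 50 and 1.29 with an offset of 1.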
